A study of Mus musculus with 22 samples.

Results

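The genes described here are 10 alpha- and beta-tubulin genes, *Tuba1a*, *Tuba1b*, *Tuba1c*, *Tuba4a*, *Tubb2a*, *Tubb2b*, *Tubb3*, *Tubb4b*, *Tubb5* and *Tubb6*, taken by symbol from the 52636 genes of the count table. They were followed by RNA-seq in fully-grown germinal vesicle (GV) oocytes of C57BL/6 mice in 22 samples of 8 genotypes. A single-end run held Dicer-WT/WT wild type (n = 3), Dicer-ΔMT/WT (n = 1), Dicer-ΔMT/ΔMT (n = 4) and Dicer-SOM/SOM (n = 3), with no age on the labels. A paired-end run held 4 double mutants, aged 40, 35, 11 and 11 weeks, which were Mili-DAH/DAH together with Dicer-SOM/SOM. Its 2 RNAi mutants (17 and 13 weeks) were Mili-DAH/WT with the Dicer-SOM/SOM genotype, its 1 piRNA mutant (16 weeks) was Mili-DAH/DAH with Dicer-SOM/WT, and its 4 heterozygous controls (36, 38, 10 and 17 weeks) carried both Mili-DAH/WT and Dicer-SOM/WT.

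The controls of the paired-end run were therefore not wild type, and every group of that run carried at least 1 Dicer-SOM and 1 Mili-DAH allele. ΔMT removes the retrotransposon promoter of the oocyte isoform of Dicer, SOM replaces introns by a cDNA cassette so that only full-length Dicer can be made, and DAH changes the catalytic site of MILI. According to the methods, the SOM line came from 1 embryonic stem cell clone, 25 oocytes went into each library, and donors were superovulated or not stimulated. The labels do not say which samples came from separate animals, so p-values measure the spread between these samples only.

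Alpha- and beta-tubulin pair into the heterodimers that build microtubules, and in the oocyte microtubules form the meiotic spindle. Cells hold tubulin mRNA in check by autoregulation, in which TTC5 recognizes the first residues of nascent tubulin and triggers decay of the mRNA being translated. In mouse oocytes, Dicer also makes siRNAs from double-stranded RNA, some of it formed by pseudogene transcripts and the mRNAs of their parent genes. The study lists *Tuba1a*, *Tuba1b*, *Tuba1c* and *Tubb3* among potential siRNA targets, chosen from small RNAs of earlier oocyte data, and the other 6 members are not on that list.

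The coding sequences are shown first because their likeness sets how far reads can be told apart. The first 30 coding bases of the alpha members, from GENCODE M21 transcripts (GRCm38), encode the residues read in autoregulation; capitals mark bases that differ from *Tuba1b*.
Tuba1b: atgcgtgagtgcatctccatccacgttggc
Tuba1a: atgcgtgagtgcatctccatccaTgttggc
Tuba1c: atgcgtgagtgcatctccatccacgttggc
Tuba4a: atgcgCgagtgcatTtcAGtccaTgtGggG

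*Tuba1c* was identical to *Tuba1b* over this stretch and *Tuba1a* differed at 1 base, while *Tuba4a* differed at 7. The start codons lie on chromosome 15 at 98934333-98934335 (*Tuba1b*, minus strand), 98953451-98953453 (*Tuba1a*, minus strand) and 99030422-99030424 (*Tuba1c*, plus strand), and on chromosome 1 at 75219193-75219195 (*Tuba4a*, minus strand). Over the whole coding sequence, *Tuba1b* was 98.3% identical to *Tuba1a*, 97.9% to *Tuba1c* and 85.1% to *Tuba4a*. The genes span 98949841-98953551 (*Tuba1a*), 98931425-98934565 (*Tuba1b*) and 99029891-99038105 (*Tuba1c*) on chromosome 15, next to each other, and 75214228-75219294 on chromosome 1 (*Tuba4a*), in GENCODE M15. The longest run shared exactly by the 3 *Tuba1* members was 239 bases. Its middle 30 bases, coding positions 129 to 158, are given below for *Tuba1b* (the same in *Tuba1a* and *Tuba1c*) and for *Tuba4a*, with capitals at the 4 differing bases.
Tuba1b: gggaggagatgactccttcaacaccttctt
Tuba4a: TggaggGgaCgactccttcaCcaccttctt

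The coding starts of 5 of the 6 beta members follow (that of *Tubb6* is not shown), with capitals at bases that differ from *Tubb5*.
Tubb5: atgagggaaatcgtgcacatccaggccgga
Tubb3: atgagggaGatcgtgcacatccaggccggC
Tubb4b: atgagggaGatcgtgcacCtGcaggcTggG
Tubb2a: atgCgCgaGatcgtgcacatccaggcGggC
Tubb2b: atgCgAgaGatcgtgcacatTcaggcGggC

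*Tubb3* differed from *Tubb5* at 2 of these bases, *Tubb4b* and *Tubb2a* at 5 and *Tubb2b* at 6. Their start codons lie at 35838051-35838053 on chromosome 17 (*Tubb5*, minus strand), 123411606-123411608 on chromosome 8 (*Tubb3*, plus strand) and 25224588-25224590 on chromosome 2 (*Tubb4b*, minus strand), and on the minus strand of chromosome 13 at 34077927-34077929 (*Tubb2a*) and 34130231-34130233 (*Tubb2b*). The *Tubb3* gene overlaps *Gm20388* on the same strand, *Tubb4b* overlaps *Fam166a* on the other, and *Tubb6* lies on chromosome 18. *Tubb2a* and *Tubb2b* were 96.5% identical over the coding sequence, whereas *Tubb5* and *Tubb6* shared 80.2%.

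A sequence window of read length showed the same division. In 50-base windows, the length of the single-end reads, 75.5% of the *Tuba1a* transcript, 83.1% of *Tuba1b* and 61.0% of *Tuba1c* also occurred in transcripts of other genes, and in 75-base windows these shares were 70.4%, 78.3% and 56.7%. The partners included the other *Tuba1* members and processed pseudogenes, of which 8 in the table shared at least 100 windows with a *Tuba1* member. Other large partners, not among these 8, were ENSMUSG00000118057 and ENSMUSG00000116358. The first shared 817, 965 and 728 windows of 50 bases with *Tuba1a*, *Tuba1b* and *Tuba1c*, and the second 674, 630 and 580. *Slc7a11*, a cystine transporter, shared 102 windows of 50 bases with *Tuba1a*, 91 with *Tuba1b* and 45 with *Tuba1c*. *Tubb2a* shared 49.6% and *Tubb2b* 39.3% of 50-base windows, mostly with each other, and *Tubb4b* shared 55.5%, mostly with its pseudogenes *Tubb4b-ps1* and *Tubb4b-ps2*. *Tuba4a* shared 48.8% of its longest transcript, nearly all with the overlapping gene *Stk16* on the other strand. *Tubb3* and *Tubb6* shared no window, and *Tubb5* shared 0.115%. Because counting split such reads between genes and ignored strand, the values of *Tuba1a*, *Tuba1b* and *Tuba1c* are not independent of each other, and their sum is given beside them.

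**Figure D1:**
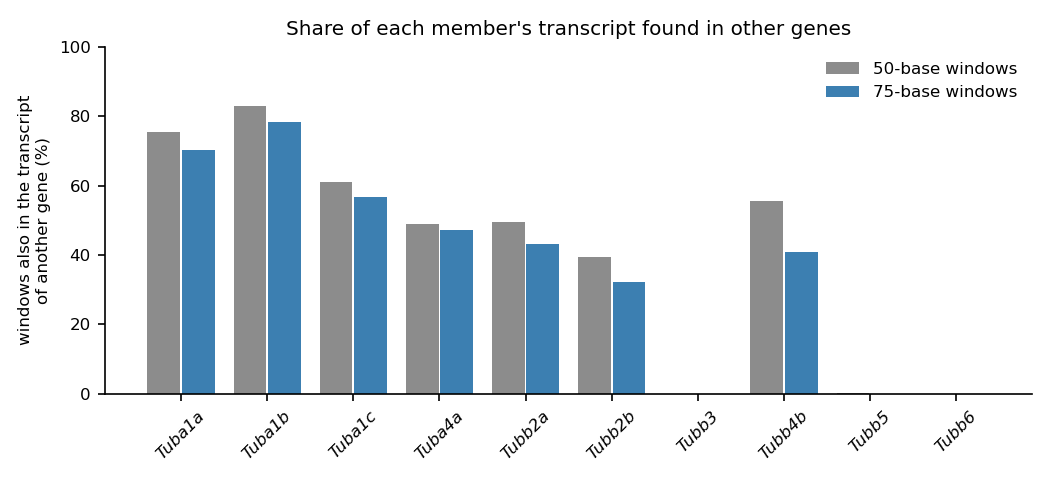
Percent of all 50-base (grey) and 75-base (blue) windows in the longest protein-coding GENCODE M21 transcript of each member that also occur, in either direction, in a transcript of another gene. The *Tuba1* members reach 61.0 to 83.1% with 50-base windows, and *Tubb3*, *Tubb5* and *Tubb6* stay at or near 0.

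Total counts per sample were 6468380 to 90713013 in the single-end run, with the lowest in Dicer-SOM/SOM replicate 3, and 22928936 to 43540806 in the paired-end run. *Dicer1* matched the labels, at 41.6 to 62.1 CPM (counts relative to the library total after TMM scaling) in the 9 samples with 2 SOM alleles and at 427 to 1050 CPM in all others. The DAH allele cannot be checked by the level of *Piwil2* (MILI), since it changes an amino acid. The 12 oocyte markers, such as *Gdf9* and *Bmp15*, summed to 12300 to 15800 CPM, and the 16 granulosa and cumulus markers to 88.8 to 169 CPM, led by *Nr5a2*, *Cyp19a1* and *Inhba*. The 12 stromal, immune and blood markers summed to 57.1 to 95.6 CPM, mostly *Pecam1* and *Cd68*, with *Hbb-bs* at 0 in most groups. In RNAi mutants the stromal, immune and blood sum (76.2 to 88.5 CPM) lay above that of controls (60.6 to 71.9 CPM), and the oocyte sum (12400 to 13100 CPM) below it (13200 to 14900 CPM). The part of these differences in the results was not tested. TMM is the scaling of edgeR between libraries. A gene was called changed at a Benjamini-Hochberg adjusted p under 0.05 in edgeR's quasi-likelihood test over all genes of the run.

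In wild type, levels per exonic length were led by beta members. *Tubb6* had 264 ± 29.2 RPKM (CPM per kilobase of exonic length, SD, n = 3), *Tubb4b* 249 ± 4.42 and *Tubb2a* 169 ± 20.5. The ranges of *Tubb6* and *Tubb4b* overlapped, and *Tubb2a* lay apart below them. *Tubb2b* (85.4 ± 5.78 RPKM) and *Tubb3* (78.0 ± 3.60) followed with overlapping ranges, then *Tuba4a* (56.4 ± 5.31) and *Tuba1c* (49.4 ± 7.01), also overlapping. *Tubb5* (39.5 ± 2.41) and *Tuba1b* (37.6 ± 5.45) overlapped as well, and *Tuba1a* was lowest at 19.0 ± 2.51 RPKM. Heterozygous controls were led by *Tubb4b* (257 ± 50.3 RPKM, n = 4), *Tubb6* (194 ± 27.6) and *Tubb2a* (180 ± 38.0), and *Tuba1a* was again lowest (15.6 ± 3.14). Between these the order differed. *Tuba1c* ranked 4, *Tuba1b* 6 and *Tuba4a* 8, where wild type had them at 7, 9 and 6. Wild type was in the single-end run and these controls in the paired-end run, so run, read type and genotype cannot be told apart. The 8 *Tuba1*-like pseudogenes, which share reads with the *Tuba1* members, averaged 122 CPM in wild type and 42.2 CPM in heterozygous controls. Summed with the *Tuba1* members, they gave 316 and 310 CPM.

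*Dicer1* mRNA averaged 486 CPM in Dicer-ΔMT/ΔMT oocytes, 49.4 CPM in Dicer-SOM/SOM oocytes and 1010 CPM in wild type, so ΔMT left more of it than SOM. Dicer-ΔMT/ΔMT was compared first with wild type. Of the 10 members, 6 rose and none fell, where 8.06% of the 23151 genes tested rose and 7.30% fell. The 3 *Tuba1* genes rose by 2.04 to 2.23 times, and *Tubb4b*, *Tubb5* and *Tubb6* by 1.28 to 1.34 times. These are levels relative to all RNA of a pool, in which the number of cells of a type and the RNA per cell cannot be told apart. The median log2 fold change of the members was 0.37, against 0.01 over all genes, and in 7 of 10 members all 4 mutant samples lay above all 3 wild-type samples, as in 16.7% of all genes.

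*Tuba1a*, an alpha-tubulin best known from developing neurons, had 33.6, 26.5 and 33.6 CPM in wild type and 70.2, 66.2, 65.9 and 73.6 CPM in Dicer-ΔMT/ΔMT. *Tuba1b*, a broadly expressed alpha-tubulin, went from 72.1, 54.6 and 69.7 to 136, 125, 130 and 145 CPM, and *Tuba1c*, its close relative, from 101, 82.2 and 109 to 228, 204, 206 and 234 CPM. Wild-type and mutant samples did not overlap for any of the 3. Log2 fold changes were 1.14 ± 0.12 (SE, adjusted p = 1.17e-04), 1.03 ± 0.11 (1.74e-04) and 1.16 ± 0.11 (7.40e-05). Their summed level rose from 194 ± 27.0 to 421 ± 27.0 CPM (SD), a ratio of means of 2.17.

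Among the beta members, *Tubb5*, the broadly expressed class I beta-tubulin, had 110, 97.4 and 106 CPM in wild type and 131, 141, 144 and 143 CPM in Dicer-ΔMT/ΔMT (log2 fold change 0.42 ± 0.08, adjusted p = 0.00647). *Tubb4b*, a widely expressed beta-tubulin, went from 389, 402 and 400 to 531, 469, 544 and 512 CPM (0.37 ± 0.07, 0.00561). For both genes every mutant sample lay above every wild-type sample. *Tubb6* went from 487, 499 and 405 to 603, 614, 554 and 606 CPM (0.36 ± 0.10, 0.0349), and its call was lost when any 1 of 5 of the 7 samples was left out, with adjusted p between 0.0739 and 0.133. *Tubb3*, the class III beta-tubulin of neurons and the only beta member among the listed targets, had 147, 138 and 152 CPM in wild type and 127, 144, 159 and 136 CPM in the mutant, with overlapping samples (-0.05 ± 0.24, adjusted p = 0.924). *Tuba4a* (0.22 ± 0.10), *Tubb2a* (0.38 ± 0.16) and *Tubb2b* (0.03 ± 0.15) did not pass the test either.

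**Figure D2:**
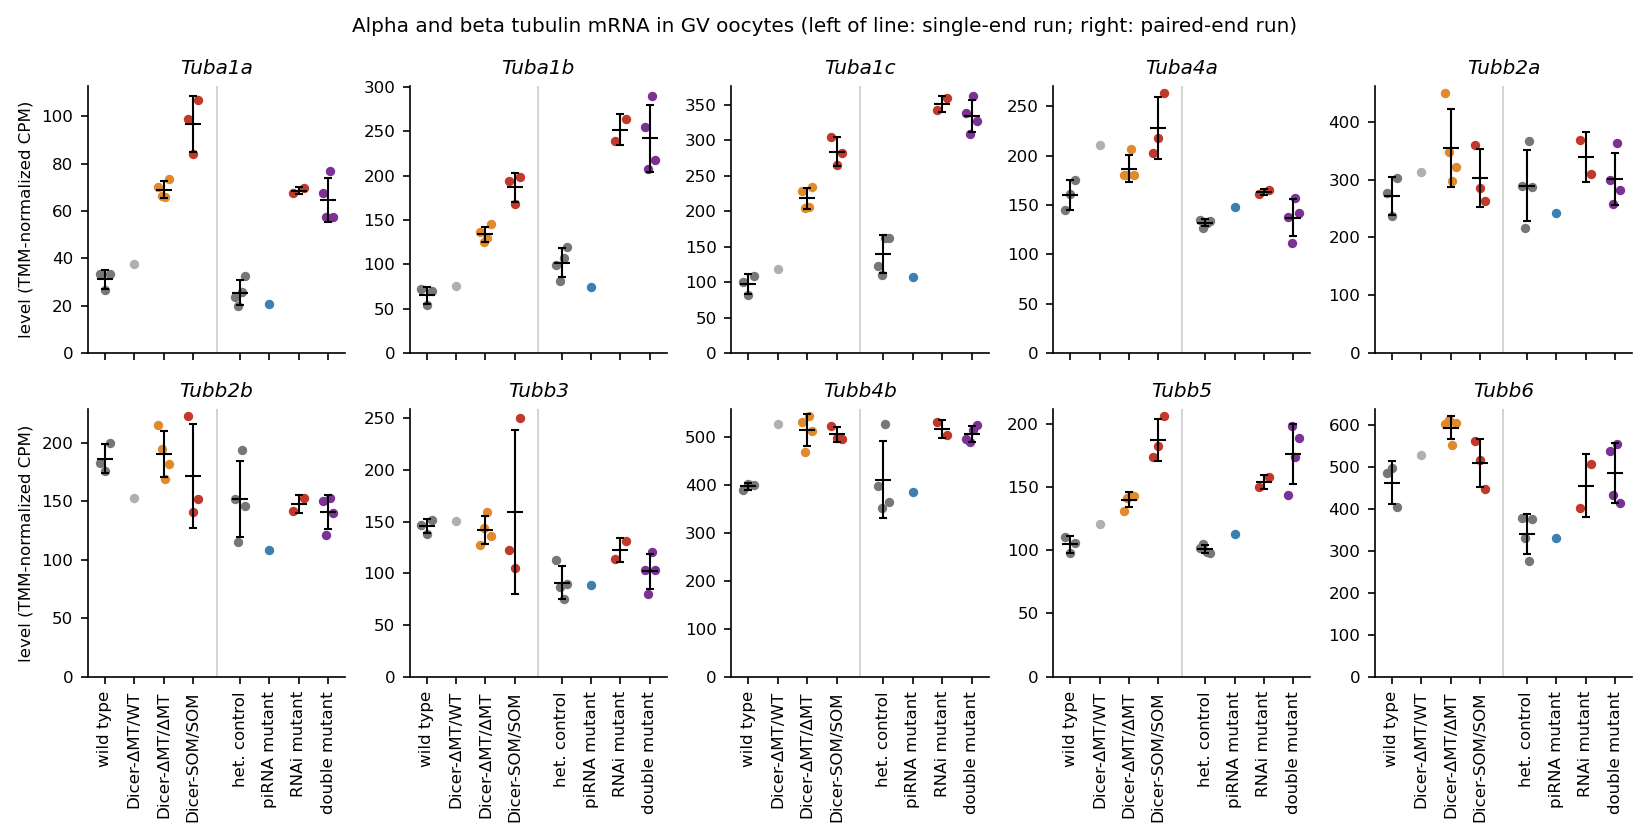
Level of each member (y axis, CPM after TMM scaling, from 0) in every sample, with the mean and SD of groups with at least 2 samples, and the runs parted by a line. *Tuba1a*, *Tuba1b* and *Tuba1c* lie clearly higher in every sample with 2 ΔMT or 2 SOM alleles than in the controls of the run, and *Tubb2a*, *Tubb2b* and *Tubb3* do not.

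In Dicer-SOM/SOM against wild type, again 6 of 10 members rose and none fell, where 14.5% of all genes tested rose and 14.2% fell. The *Tuba1* genes were raised by 2.86 to 3.10 times, *Tubb5* was raised by 1.80 times and *Tuba4a* by 1.43 times. *Tuba1a* had 99.0, 84.0 and 107 CPM, *Tuba1b* 194, 168 and 198 CPM and *Tuba1c* 305, 265 and 282 CPM in the 3 mutant samples. All lay above wild type, and log2 fold changes were 1.63 ± 0.12 (adjusted p = 5.50e-06), 1.51 ± 0.12 (6.93e-06) and 1.55 ± 0.11 (4.77e-06). Their summed level was 567 ± 43.9 CPM, 2.92 times wild type. The median over the members was 0.43, against 0.02 over all genes.

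*Tubb5* had 174, 182 and 206 CPM in Dicer-SOM/SOM (0.85 ± 0.09, adjusted p = 5.12e-05). *Tubb4b* had 522, 498 and 495 CPM (0.35 ± 0.08, 0.00536), and *Tuba4a*, the alpha-tubulin whose gene lies apart from the *Tuba1* cluster, had 203, 218 and 263 CPM against 145, 161 and 175 in wild type (0.51 ± 0.11, 0.00615). None of these groups overlapped. *Stk16*, which shares reads with *Tuba4a*, averaged 24.6 ± 2.27 CPM in wild type, while Dicer-SOM/SOM oocytes had 22.5 ± 4.80 CPM (SD, n = 3 each). *Tubb6* had 563, 517 and 449 CPM, which overlapped wild type (0.14 ± 0.11, adjusted p = 0.346). *Tubb2a* (0.16 ± 0.17) and *Tubb2b* (-0.11 ± 0.16) were not called.

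*Tubb3* depended on 1 library. It had 123 and 105 CPM in Dicer-SOM/SOM replicates 1 and 2, below all wild-type samples, and 250 CPM in replicate 3, the library with the lowest total count. With all samples, the log2 fold change against wild type was 0.12 ± 0.25 (adjusted p = 0.766). Without replicate 3 it was -0.35, with an adjusted p of 0.0371, so that *Tubb3* was then called lower. Of the 4 members on the list of potential siRNA targets, *Tubb3* was the one that was not called higher in any comparison.

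Dicer-SOM/SOM and Dicer-ΔMT/ΔMT were then compared with each other. The *Tuba1* genes and *Tubb5* were higher in Dicer-SOM/SOM, so that 4 of 10 members rose and none fell, where 4.03% of all genes tested rose and 3.32% fell. The log2 fold changes were 0.49 ± 0.11 for *Tuba1a* (adjusted p = 0.0242), 0.48 ± 0.11 for *Tuba1b* (0.0223), 0.39 ± 0.10 for *Tuba1c* (0.0475) and 0.43 ± 0.08 for *Tubb5* (0.0107). In these 4 members, all samples of Dicer-SOM/SOM lay above all samples of Dicer-ΔMT/ΔMT, as in 10.2% of all genes. The number of members called was 1 to 3 when 1 sample was left out, namely 1 without Dicer-ΔMT/ΔMT replicate 1, 2 or 3 or Dicer-SOM/SOM replicate 1, and 2 without Dicer-SOM/SOM replicate 3. *Tuba1c* lost its call without any single sample, with log2 fold changes of 0.33 to 0.43. *Tubb4b* (-0.02 ± 0.07), *Tubb6* (-0.21 ± 0.10) and *Tubb2a* (-0.22 ± 0.16) lay at or below the level of Dicer-ΔMT/ΔMT and were not called.

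The paired-end run measured the loss of RNAi on the Mili-DAH background. In RNAi mutants against heterozygous controls, the *Tuba1* genes and *Tubb5* rose, 4 of 10 members, where 7.07% of the 20989 genes tested rose, and no member fell, where 3.64% of genes fell. *Tuba1a* had 67.5 and 69.7 CPM in RNAi mutants and 23.9, 20.1, 26.0 and 32.5 CPM in controls (log2 fold change 1.42 ± 0.19, adjusted p = 1.94e-04). *Tuba1b* had 239 and 264 against 99.8, 81.3, 107 and 120 CPM (1.30 ± 0.17, 1.83e-04). *Tuba1c* had 343 and 359 against 123, 110, 163 and 163 CPM (1.33 ± 0.16, 1.03e-04). For all 3 genes both mutant samples lay far above the highest control, and their sum was 671 ± 30.5 against 267 ± 47.5 CPM, a ratio of 2.51.

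*Tubb5* had 150 and 158 CPM in RNAi mutants against 102, 105, 98.9 and 97.9 CPM (0.61 ± 0.14, adjusted p = 0.0117). The groups lay apart, but the call was lost without RNAi mutant replicate 1 (0.0618) or replicate 2 (0.0955). In 3 further members, *Tuba4a*, *Tubb3* and *Tubb6*, both RNAi mutant samples lay above all controls, but none passed the test, with log2 fold changes of 0.31 ± 0.14, 0.42 ± 0.18 and 0.42 ± 0.17. This made 7 of 10 members without overlap, as for 18.5% of all genes. *Tubb4b* had 530 and 503 CPM against 398, 352, 527 and 364 CPM (0.33 ± 0.16, adjusted p = 0.216), and was called (0.48, 0.0147) once control replicate 3, the one at 527 CPM, was left out.

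Double mutants against the same controls gave 5 of 10 members higher and none lower, where 12.3% of all genes tested rose and 8.83% fell. *Tuba1a* had 67.5, 57.4, 76.7 and 57.6 CPM (1.34 ± 0.16, adjusted p = 4.58e-05). *Tuba1b* had 255, 207, 289 and 217 CPM (1.25 ± 0.15, 3.57e-05), and *Tuba1c* 339, 309, 362 and 327 CPM (1.26 ± 0.14, 2.24e-05). *Tubb5* had 144, 198, 174 and 189 CPM (0.80 ± 0.12, 2.42e-04). No sample of these 4 genes overlapped the controls. Values of the double mutants aged 40 and 35 weeks interleaved with those of the double mutants aged 11 weeks. Values of the controls did not interleave. Controls aged 36 and 38 weeks lay below those aged 10 and 17 weeks for the *Tuba1* genes, and above them for *Tubb5*. *Tuba1c* had 123 and 110 against 163 and 163 CPM, and *Tubb5* 102 and 105 against 98.9 and 97.9 CPM. An effect of age itself was not tested.

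*Tubb6* had 539, 435, 555 and 415 CPM in double mutants against 380, 330, 277 and 377 CPM (0.51 ± 0.14, adjusted p = 0.0192), again with no overlap, which made 5 members without overlap, as for 13.1% of all genes. Its call was lost without double mutant replicate 1 (0.0534) or 3 (0.0602) and among animals of at most 17 weeks (0.58, 0.144). *Tubb4b* was at 0.30 ± 0.13 (adjusted p = 0.116) and was called without control replicate 3 (0.46, 0.00445). *Tuba4a* (0.05 ± 0.12), *Tubb2a* (0.05 ± 0.16), *Tubb2b* (-0.10 ± 0.15) and *Tubb3* (0.16 ± 0.15) did not pass the test. The median of the members was 0.42 in RNAi mutants, against -0.02 over all genes, and 0.41 in double mutants, against -0.0012.

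**Figure D3:**
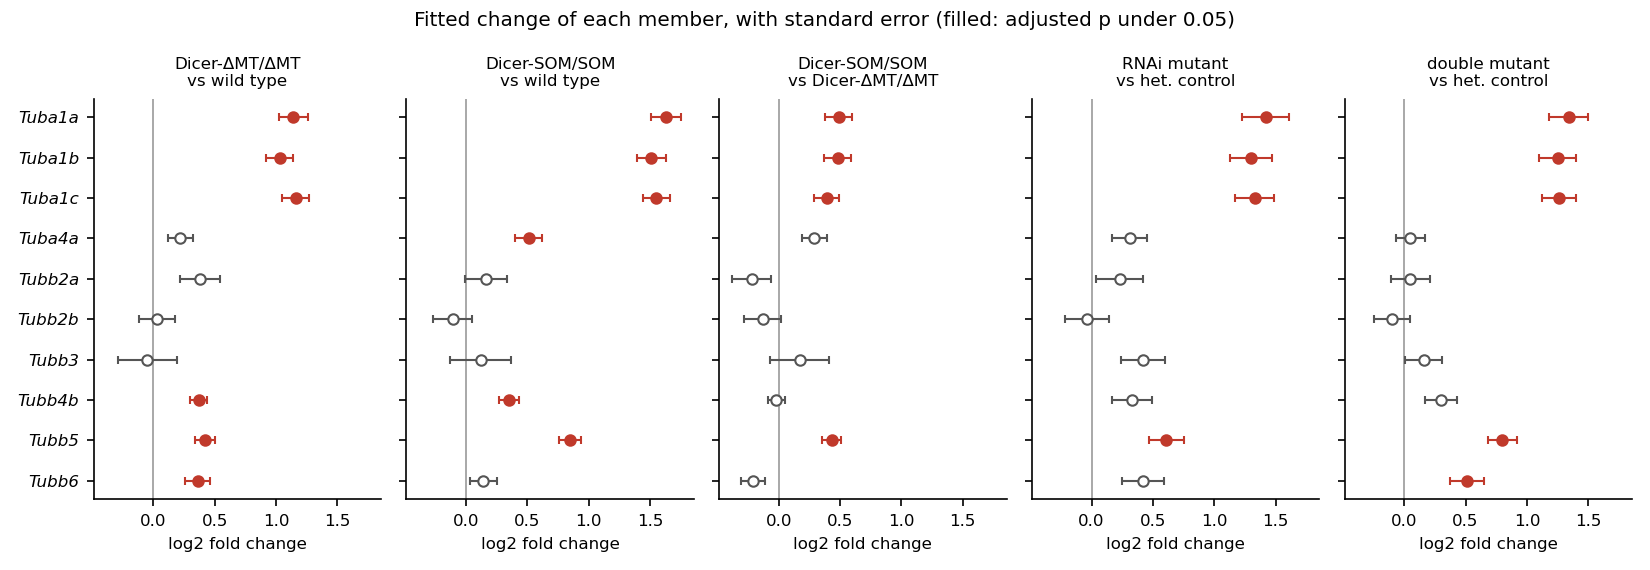
Fitted log2 fold change of each member with its standard error in 5 comparisons (filled red points: adjusted p under 0.05 in edgeR's quasi-likelihood test, open points: not called). *Tuba1a*, *Tuba1b* and *Tuba1c* lie between 1.03 and 1.63 in the 4 comparisons with controls, and *Tubb5* between 0.42 and 0.85.

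Adding the loss of MILI activity to the loss of RNAi was addressed by double mutants against RNAi mutants. No member was called by edgeR's quasi-likelihood test or by DESeq2, 0 of 10 members had an unadjusted p under 0.05, and 0.314% of all genes were called. The log2 differences ran from -0.26 ± 0.19 for *Tubb3* to 0.19 ± 0.14 for *Tubb5*, with -0.08 ± 0.19 for *Tuba1a*. The smallest unadjusted p was 0.0983, for *Tuba4a* (-0.25 ± 0.14), whose 4 double mutant samples all lay below both RNAi mutant samples, the only member of the 10 without overlap, as for 7.05% of all genes in this direction.

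The Dicer-SOM/SOM change was measured in both runs, against wild type and against heterozygous controls. No member differed between the runs in the test of this difference, where 0.00806% of 24824 genes did. *Tuba1a* differed by 0.18 ± 0.23 on the log2 scale, single-end minus paired-end, *Tubb5* by 0.21 ± 0.16 and *Tubb3* by -0.33 ± 0.32. The smallest unadjusted p was 0.153, for *Tubb6* (-0.31 ± 0.21). DESeq2 called no member either.

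In the single piRNA mutant, the summed *Tuba1* members were not raised. *Tuba1a* had 20.9, *Tuba1b* 74.1 and *Tuba1c* 107 CPM, within or below the control range, and their sum of 202 CPM was below the lowest control at 211 CPM. *Tubb5* (113 CPM) and *Tuba4a* (148 CPM) lay above the highest control, at 105 and 135 CPM. The other members were within the range of the controls except *Tubb2b*, which was below it at 108 CPM. In the single Dicer-ΔMT/WT sample, 8 of 10 members were above all wild-type samples, as were 29.1% of the genes tested in the run, with *Tuba1a* at 37.6 and *Tuba1b* at 75.4 CPM. Its summed *Tuba1* level of 231 CPM was 1.19 times the wild-type mean. These samples have no replicate, so no test was made.

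Read sharing was followed through the *Tuba1*-like pseudogenes, which cannot be told apart from their parents by many reads. The 8 pseudogenes summed to 133, 105 and 129 CPM in wild type and to 386, 320 and 394 CPM in Dicer-SOM/SOM, a ratio of means of 3.01. In the paired-end run they held 41.0, 35.5, 45.9 and 46.6 CPM in controls and 99.3 and 105 CPM in RNAi mutants, a ratio of 2.42. The pseudogenes took a smaller share beside the members in the paired-end run than in the single-end run, and moved with them in both. Read type and control genotype differed together between the runs and cannot be told apart. Because counting split shared reads between members and pseudogenes, their values are not independent of each other. Members and pseudogenes summed gave ratios to controls of 2.17 to 2.95 over the 4 comparisons, with 2.40 in double mutants, near the ratios of the members alone. *Tubb4b* summed with its pseudogenes gave 1.31, 1.28, 1.25 and 1.23 in the same order. Which of the *Tuba1* copies the additional reads came from was not tested.

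**Figure D4:**
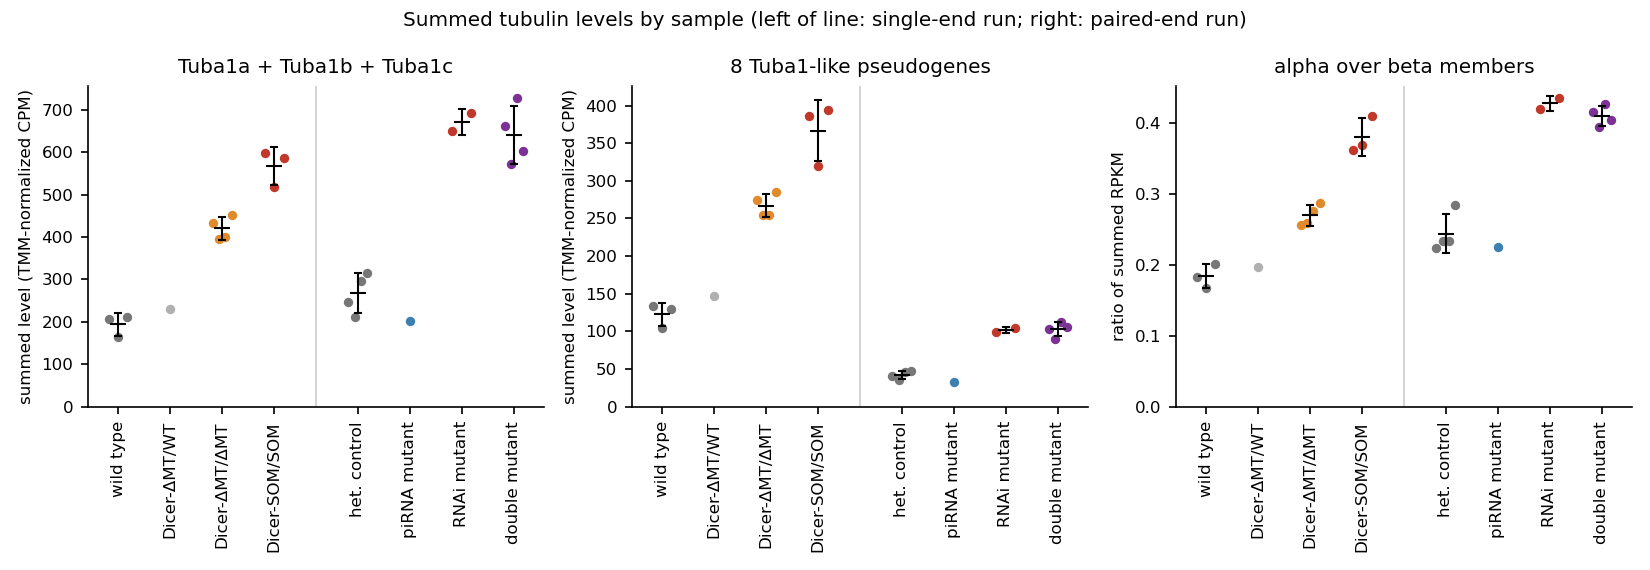
Summed CPM of *Tuba1a*, *Tuba1b* and *Tuba1c* (left), of the 8 *Tuba1*-like pseudogenes (middle) and the ratio of summed alpha to summed beta RPKM (right) in every sample, with mean and SD of groups with at least 2 samples. All 3 quantities are higher in every sample with 2 ΔMT or 2 SOM alleles than in every control sample of its run, with ratios of at most 0.283 in controls and at least 0.393 in RNAi and double mutants.

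The make-up of tubulin mRNA differed between the groups. Per length, the ratio of summed alpha to summed beta members was 0.183 ± 0.0172 in wild type (SD). It was 0.269 ± 0.0153 in Dicer-ΔMT/ΔMT oocytes, while Dicer-SOM/SOM oocytes had 0.379 ± 0.0266. In the paired-end run this ratio was 0.243 ± 0.0270 in controls, 0.427 ± 0.0108 in RNAi mutants and 0.409 ± 0.0132 in double mutants, and 0.225 in the piRNA mutant. All samples of Dicer-ΔMT/ΔMT, Dicer-SOM/SOM, RNAi and double mutants lay above all controls of their run, and the piRNA mutant lay within the control range of 0.223 to 0.283. The *Tuba1* members made up 10.1 ± 1.20% of the RPKM of all 10 members in wild type. This share was 16.5 ± 0.882% in Dicer-ΔMT/ΔMT oocytes, while Dicer-SOM/SOM oocytes had 21.8 ± 0.708%. In CPM, the beta members summed to 1570 ± 22.4 in wild type, 1930 ± 84.0 in Dicer-ΔMT/ΔMT oocytes and 1840 ± 119 in those of Dicer-SOM/SOM, and alpha members to 354 ± 31.7, 608 ± 23.7 and 795 ± 57.8. Per length, *Tuba1c* ranked 7 of 10 in wild type, below *Tubb2b*, and 4 of 10 in Dicer-SOM/SOM, above it. In the paired-end run its rank did not change, at 4 of 10 in controls, RNAi mutants and double mutants. In these controls it had 70.6 RPKM and *Tubb2b* 69.4 RPKM, with overlapping ranges.

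Of 9 other tubulin genes tested in the single-end run (gamma-, delta-, epsilon- and tissue-restricted alpha- and beta-tubulins), 2 rose and 1 fell in Dicer-SOM/SOM, where 28.6% of all genes were called. *Tubal3*, an alpha-tubulin-like gene, rose by 0.56 ± 0.13 on the log2 scale (adjusted p = 0.00927). In RNAi mutants, where 10.7% of all genes were called, 1 of 8 fell, *Tuba3b*, an alpha-tubulin of testis, by 1.16 ± 0.31 on the log2 scale in RNAi mutants (adjusted p = 0.0270), and it fell in double mutants too (0.00828).

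Genes that fold tubulin or adjust its mRNA were set beside the share of all genes called. Of 21 genes for folding and dimer assembly, 2 rose and 1 fell in Dicer-ΔMT/ΔMT, where 15.4% of all genes were called. In Dicer-SOM/SOM 3 rose and 1 fell, where 28.6% of all genes were called. In double mutants 2 rose and 2 fell, where 21.2% of all genes were called. These counts were near or below the shares of all genes. *Tbcd*, the cofactor that binds beta-tubulin during dimer assembly, rose by 1.93 ± 0.13 in Dicer-SOM/SOM (17.2 to 65.4 CPM, adjusted p = 2.10e-06), by 1.79 ± 0.16 in RNAi mutants and by 1.78 ± 0.14 in double mutants, and by 0.55 ± 0.12 in Dicer-ΔMT/ΔMT (0.00946). *Vbp1*, a prefoldin subunit that hands tubulin to the chaperonin, rose by 1.31 ± 0.18 in Dicer-SOM/SOM (2.75e-04), 1.33 ± 0.24 in RNAi mutants and 1.25 ± 0.20 in double mutants. *Cct4*, a subunit of that chaperonin, was lower in Dicer-ΔMT/ΔMT (-0.67 ± 0.16, 0.0180), in RNAi mutants (-0.88 ± 0.25, 0.0404) and in double mutants (-0.83 ± 0.20, 0.00854). Of the 5 autoregulation genes, 1 rose and 1 fell in Dicer-SOM/SOM, where 28.6% of all genes were called. *Scaper* rose by 0.81 ± 0.09 in Dicer-SOM/SOM (9.53e-05), 0.79 ± 0.14 in RNAi mutants and 0.63 ± 0.12 in double mutants. *Cnot1*, the scaffold of the deadenylase, was lower in Dicer-SOM/SOM (-0.56 ± 0.08, 5.37e-04). It was also lower in Dicer-ΔMT/ΔMT (-0.48 ± 0.08, 0.00198) and in double mutants (-0.56 ± 0.13, 0.00722).

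Among 16 genes of the gamma-tubulin ring complex and augmin, which nucleate microtubules, 3 rose and 4 fell in Dicer-SOM/SOM, where 14.5% of all genes rose and 14.2% fell. In double mutants 1 rose, where 12.3% of all genes rose. That gene was *Haus4*, an augmin subunit, with log2 fold changes of 0.62 ± 0.10 in Dicer-SOM/SOM and 0.69 ± 0.16 in double mutants. Of the 20 tubulin modifying enzymes, 4 rose and 2 fell in Dicer-SOM/SOM, near the 28.6% of all genes called there, with *Ttll1*, a polyglutamylase, at 1.18 ± 0.09 (adjusted p = 7.23e-06) and *Ttll7*, another polyglutamylase, at -1.68 ± 0.23 (2.84e-04). Of 31 microtubule-binding and dynamics genes tested, 2 rose and 10 fell in Dicer-SOM/SOM, where 14.2% of all genes fell. In RNAi mutants 3 rose and 0 fell, and in double mutants 2 rose and 2 fell, where 7.07% and 12.3% of all genes rose. *Kif2c*, a microtubule depolymerase, rose by 0.67 ± 0.08 in Dicer-SOM/SOM (7.96e-05), by 0.53 ± 0.13 in RNAi mutants (0.0184) and by 0.50 ± 0.11 in double mutants (0.00488).

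The pattern of the summed alpha members over the 22 samples, in log2 CPM centred on the mean of each run, was most like that of *Gm3226* (Pearson's r = 0.99), 1 of the 8 pseudogenes that share reads with them, *Sdhaf4*, an assembly factor of succinate dehydrogenase (0.99), and *Hsp90ab1*, a cytosolic chaperone (0.98), among 14154 genes. For the summed beta members these were *Gm43574* (0.92), *Hmgb3*, a chromatin protein (0.91), and *Bud31*, a splicing factor (0.91). The samples share genotypes and libraries, so these values only describe likeness. *Hsp90ab1* had 427 CPM in wild type and 1060 CPM in Dicer-SOM/SOM, a log2 fold change of 1.31 ± 0.08 (adjusted p = 1.68e-06).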

How the data were processed

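RNA-seq libraries (NuGEN Ovation V2) of GV oocytes were sequenced as 50-nt single-end or 75-nt paired-end reads. The authors mapped reads to mm10 with STAR 2.5.3a, kept multi-mapping reads, and counted them over GENCODE M15 exons with featureCounts without regard to strand, giving each mapped place or overlapping gene a fraction of the read. The deposited values are therefore expected counts, 31.6% of them not whole, and were rounded to whole numbers here.

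Each run was analysed apart with edgeR 4.0.16 in R 4.3.3: genes were kept by filterByExpr (count of 10, total of 15), scaled by TMM and compared by the quasi-likelihood test with Benjamini-Hochberg adjustment at 0.05, with all replicated groups of the run in the fit. The single piRNA mutant was in the paired-end fit as its own group, and the single Dicer-ΔMT/WT sample was in no fit. Neither was compared by a test. CPM were scaled over the 11 samples of each run, and RPKM used the exonic length in the table. Depth was 6468380 to 90713013 counts per sample, so that 3 counts, the floor for a count of 0, were 0.0331 to 0.464 CPM (counting error only). On simulated data, 150 of 200 genes changed by 1 log2 unit were recovered with 13 false calls for Dicer-SOM/SOM against wild type (23151 genes), and 147 with 9 for double mutants against controls (20989 genes). No replicates differed as little as sampling noise.

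Alternatives were DESeq2 1.42.0, other filters, fits of only the groups compared, a replicate block and near-identical members summed. Others were age in weeks as a covariate and animals of at most 17 weeks (both for the paired-end run), and leaving out each sample. Members are named in all comparisons; of each other list, the called genes with the largest changes are named. The members and lists were chosen with earlier results of these data known. Sequences and windows come from GENCODE M21 transcripts on GRCm38.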

Additional observations from a re-analysis of the deposited data

Results flagged for a closer look

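*Tuba4a* stood out in Dicer-ΔMT/ΔMT replicate 3, at 207 CPM, where the other 3 samples of the group had 180 CPM. The gap to the nearest sample was 0.990 of the group's range, above the 95% critical value of Dixon's test for 4 samples. This was 1 of 30 such tests, and chance marks about 1 in 20 groups.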

How the results depend on the processing

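The calls of *Tuba1a*, *Tuba1b* and *Tuba1c* as higher than controls held under all alternatives run in the 4 comparisons. The number of members called in Dicer-SOM/SOM against Dicer-ΔMT/ΔMT was 1 to 3 with 1 sample left out. Without the filter on low counts, *Tubb6* in Dicer-ΔMT/ΔMT (0.36, adjusted p = 0.0687) and *Tuba1c* in Dicer-SOM/SOM against Dicer-ΔMT/ΔMT (0.36, 0.107) were not called by edgeR; the cause was not tested. Signs changed only for members that were not called with all samples, of which *Tubb3* in Dicer-SOM/SOM against wild type was called lower without Dicer-SOM/SOM replicate 3 (-0.35, adjusted p = 0.0371). With *Tubb2a* and *Tubb2b* summed, the log2 fold change given for *Tubb2b* became 0.06 in Dicer-SOM/SOM, 0.14 in RNAi mutants and 0.0012 in double mutants, since the sum includes *Tubb2a*. With a mean of at least 5 CPM, *Tubb4b* in Dicer-SOM/SOM against Dicer-ΔMT/ΔMT became 0.03, and among animals of at most 17 weeks *Tubb2a* in double mutants became -0.01.

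With 1 sample left out, log2 fold changes ran from -0.03 to 0.10 for *Tubb2b* and -0.09 to 0.0026 for *Tubb3* in Dicer-ΔMT/ΔMT, and from -0.35 to 0.02 for *Tubb2b* and -0.35 to 0.34 for *Tubb3* in Dicer-SOM/SOM. Against Dicer-ΔMT/ΔMT they ran from -0.30 to 0.39 for *Tubb3* and -0.06 to 0.00015 for *Tubb4b*. In RNAi mutants *Tubb2b* ran from -0.15 to 0.11, and in double mutants *Tuba4a* from -0.01 to 0.15, *Tubb2a* from -0.06 to 0.20 and *Tubb2b* from -0.22 to 0.05.

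Same-numbered samples of different groups deviated together little or not at all (r from -0.025 to 0.054 single-end and -0.069 to 0.177 paired-end), so the numbers were not taken as pairs. The highest paired-end values, 0.177 and 0.135, did belong to same-numbered double mutants and controls, where differently numbered samples reached 0.107. With a replicate block, 6, 6, 4, 3, 5 and 0 members were called in place of 6, 6, 4, 4, 5 and 0, the loss being *Tubb5* in RNAi mutants (0.59, adjusted p = 0.115 in edgeR), and *Tubb2a* became -0.05 in RNAi and -0.03 in double mutants.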

Other observations

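The transcript of *Slc7a11*, a cystine transporter, held 22-base windows antisense to the *Tuba1* members, 317 to *Tuba1a*, 294 to *Tuba1b* and 299 to *Tuba1c*. A gene of GENCODE M21 with no symbol, ENSMUSG00000118057, held more, 1022, 1245 and 979, and its level was not analysed here. Some members off the list of potential siRNA targets had antisense windows too, while *Tubb3*, which is on that list, was not among the members with such windows. The overlapping genes *Stk16* and *Fam166a* held 1358 to *Tuba4a* and 100 to *Tubb4b*, and many genes held some to *Tubb5*, at most 32 (*Lin7c*). *Slc7a11* was chosen after its values were seen. Its level was 635 CPM in wild type and 642 CPM in Dicer-ΔMT/ΔMT oocytes. Dicer-SOM/SOM oocytes had 548 CPM. In the paired-end run it was 698 CPM in heterozygous controls, 683 CPM in RNAi mutants and 689 CPM in double mutants. It was not called in any comparison by edgeR's quasi-likelihood test, with log2 fold changes of 0.01 ± 0.10 in Dicer-ΔMT/ΔMT (adjusted p = 0.953), -0.21 ± 0.11 in Dicer-SOM/SOM (0.201) and -0.03 ± 0.18 in RNAi mutants (0.941).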
